A study of Homo sapiens with 15 samples.

Results

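Alcohol dehydrogenases are zinc enzymes that turn alcohols into aldehydes or ketones and pass the electrons to NAD+. The 6 genes described here are ADH1A, ADH1B, ADH1C, ADH4, ADH5 and ADH6, which are 6 of the 19143 rows of a table of read counts, in all of its 15 libraries. They were chosen by name, with results of these data already known, so their values are given as a description and without p-values.

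Liver cells use this family to clear ethanol. Class I enzymes (ADH1A, ADH1B and ADH1C, the alpha, beta and gamma subunits) do most of that work in adult liver, with help from ADH4, the class II enzyme. The acetaldehyde they make is oxidised to acetate by aldehyde dehydrogenases, chiefly ALDH2. Class III ADH5 is found in nearly every tissue and oxidises formaldehyde bound to glutathione. ADH6, of class V, is known mainly from its transcript. Several members and their relative ADH7 also oxidise retinol, the first step towards retinoic acid.

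All libraries came from MHCC-97H, an established human line of hepatocellular carcinoma, and were made as single-end reads of 50 bases. A first set of libraries, called the first round here, compared MHCC-97H from an animal model, MHCC-97H in a 3D model and MHCC-97H in a 2D model. A second set, called the second round, compared heat-treated cells in the 3D model (3D heat) with cells labelled as the treatment control in that model (3D control). The group labels name no sequencing run, so the rounds are read from the groups alone. Each of the 5 groups has 3 libraries, and the labels name no engineered allele in any group. The host animal, its age, the site of the tumour, the material of the 3D model, and the temperature and time of heating are not given in the sources used here. Whether the replicates of a group are separate cultures or separate animals is not stated either, so a test here measures the spread between these libraries, which may be technical. The study asked which transcripts set the 3D environment apart and what heat does to cells in it.

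Each library held 12605539 to 18634295 reads. In 3D replicates 1 and 2 and 3D heat replicate 1, a gene's departure from its 2D mean tracked the GC content of its transcript. The rank correlations across genes were 0.725, 0.814 and 0.606, against -0.209 to 0.230 in the other 12 libraries. Results that rest on these 3 libraries are also given without them. Without 3D replicates 1 and 2 the 3D group holds 1 library, so its spread cannot be estimated. A call in that fit borrows the spread of the other groups and is no check by replicates. The label of a hepatocellular line was checked against 14 hepatocyte markers. Their summed level was 424 to 638 CPM (reads of a gene scaled to the size of its library) in animal libraries, 64.5 to 125 CPM in 3D libraries, 78.2 to 84.3 CPM in 2D libraries, 41.6 to 77.9 CPM in 3D heat libraries and 95.9 to 125 CPM in 3D control libraries. Albumin (ALB) was present in every library but at only 0.581 to 5.13 CPM outside the animal model. The hepatocyte factor HNF4A stood at 75.6 to 151 CPM in all 15 libraries.

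The family lies in one cluster on chromosome 4, and in RefSeq on GRCh38.p14 the protein-coding genes run ADH5, ADH4, ADH6, ADH1A, ADH1B, ADH1C and ADH7, with METAP1 before them and C4orf17 after them. All 6 members are read from the minus strand. The class I promoters are shown because these genes have similar sequence and were the ones seen almost solely in the animal model, and that of ADH5 because it was read in every library. Each stretch has 80 bases, written 5′ to 3′ from RefSeq on GRCh38.p14, at chr4:99352776-99352855 (ADH1C), chr4:99321431-99321510 (ADH1B), chr4:99291019-99291098 (ADH1A) and chr4:99088789-99088868 (ADH5). Capitals mark the E box letters CACGTG in ADH1C and ADH1B, the matching letters in ADH1A, and the GC box GGGCGG, which in ADH5 lies on the other strand and so reads CCGCCC.
ADH1C: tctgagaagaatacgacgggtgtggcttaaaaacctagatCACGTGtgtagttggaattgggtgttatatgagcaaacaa
ADH1B: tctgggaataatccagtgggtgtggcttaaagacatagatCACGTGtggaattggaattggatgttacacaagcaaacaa
ADH1A: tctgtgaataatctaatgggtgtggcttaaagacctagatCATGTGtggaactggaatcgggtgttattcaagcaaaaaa
ADH5: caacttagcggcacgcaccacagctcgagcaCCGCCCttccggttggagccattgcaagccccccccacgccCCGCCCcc

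Over these 80 bases ADH1B had 66 and ADH1A 64 bases identical to ADH1C. ADH1A differed from the E box by C3T, counted from 1 at the 5′ end of its 6 letters. Over the aligned promoters, identity was 86.8% between ADH1A and ADH1B, 82.5% between ADH1A and ADH1C and 82.9% between ADH1B and ADH1C. Both strands of the 250 bases before each gene's start were searched for 5 sets of letters, none of which overlaps another. The E box began 69 bases before the start in ADH1B and ADH1C, and 6.34% of 35116 RefSeq promoters hold it. The GC box was found at 49 and 8 bases before the start of ADH5 and in no other member, with 42.6% of promoters holding one. CCAAT was found in ADH1A, ADH1B, ADH1C and ADH4 (32.0% of promoters). TATAAA (10.7%) and GTTAAT, a part of the site of the factor HNF1 (6.23%), were found in ADH4 alone among the members. None of the 5 was found in ADH6. These are matches of letters in a window and were not tested as sites.

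Class I transcripts were read in the animal model and hardly anywhere else. ADH1C, the gamma subunit, had 204, 639 and 260 reads in the animal libraries, 1, 1 and 0 reads in the 3D libraries, 3, 0 and 0 in the 2D libraries, 0, 0 and 2 in the 3D heat libraries and 2, 1 and 1 in the 3D control libraries. All 3 animal libraries stood far above every cultured library, and animal replicate 2 stood above the other two. As levels, ADH1C averaged 23.8 ± 17.1 CPM in the animal model, 0.0501 ± 0.0434 CPM in the 3D model and 0.0533 ± 0.0923 CPM in the 2D model (SD, n = 3 each). In pooled reads scaled by library size, ADH1C was 493-fold higher in the animal model than in the 3D model (exact 95% interval 136 to 4079.6) and 432-fold higher than in the 2D model (148 to 2100.4). These intervals cover counting error only, and the wide range comes from the 2 and 3 reads of the cultured groups.

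ADH1B, the beta subunit and the form best known from human variation in ethanol clearance, had 15, 45 and 18 reads in the animal libraries, 0 reads in each 3D library and 1, 0 and 1 reads in the 2D libraries. In the second round it had 0, 1 and 0 reads in 3D heat libraries and 5, 0 and 0 in 3D control libraries. The lowest animal library stood above every cultured one, and again animal replicate 2 was highest. Its pooled level was 45.9-fold higher in the animal model than in the 2D model (12.3 to 386). Against the 3D model it was at least 7.94-fold higher, with the empty 3D libraries set to a floor of 3 reads each. The 5 reads of 3D control replicate 1 were the most in any cultured library.

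ADH1A, the alpha subunit, was the scarcest of the class, with 3, 11 and 1 reads in the animal libraries, 1, 0 and 0 reads in the 3D libraries and none in the other 9. A count of 0 in a 2D library allows up to 0.158 to 0.160 CPM, above the 0.0600 CPM of animal replicate 3. The pooled animal level was at least 2.07-fold higher than in the 2D model by the same floor, and 13.4-fold higher than in the 3D model, where 1 read gives an interval of 2.06 to 565.

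ADH1C made up most of class I in each animal library. It held 91.9%, 91.9% and 93.2% of the class I reads of animal replicates 1, 2 and 3, which were 222, 695 and 279 reads. Class I made up 12.7%, 31.2% and 14.99% of the reads of the whole family in those libraries, against at most 0.610% in any cultured library. These genes are similar enough for short reads to be lost or misassigned. Of all 50-base windows in its longest coding transcript (GENCODE 29), 20.9% in ADH1C, 9.37% in ADH1B and 14.3% in ADH1A occur exactly in another gene. Allowing 2 mismatches within the family, the shares were 53.2%, 22.1% and 50.9%, so the split between the 3 genes is uncertain. The summed class I reads do not depend on that split, and were 357-fold higher in the animal model than in the 3D model (122 to 1732) and 281-fold higher than in the 2D model (120.2 to 868). Between the 3D and 2D models they were 3 and 5 reads, a ratio of 0.789 with an interval of 0.123 to 4.05. No difference was detectable there at this depth.

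**Figure D1:**
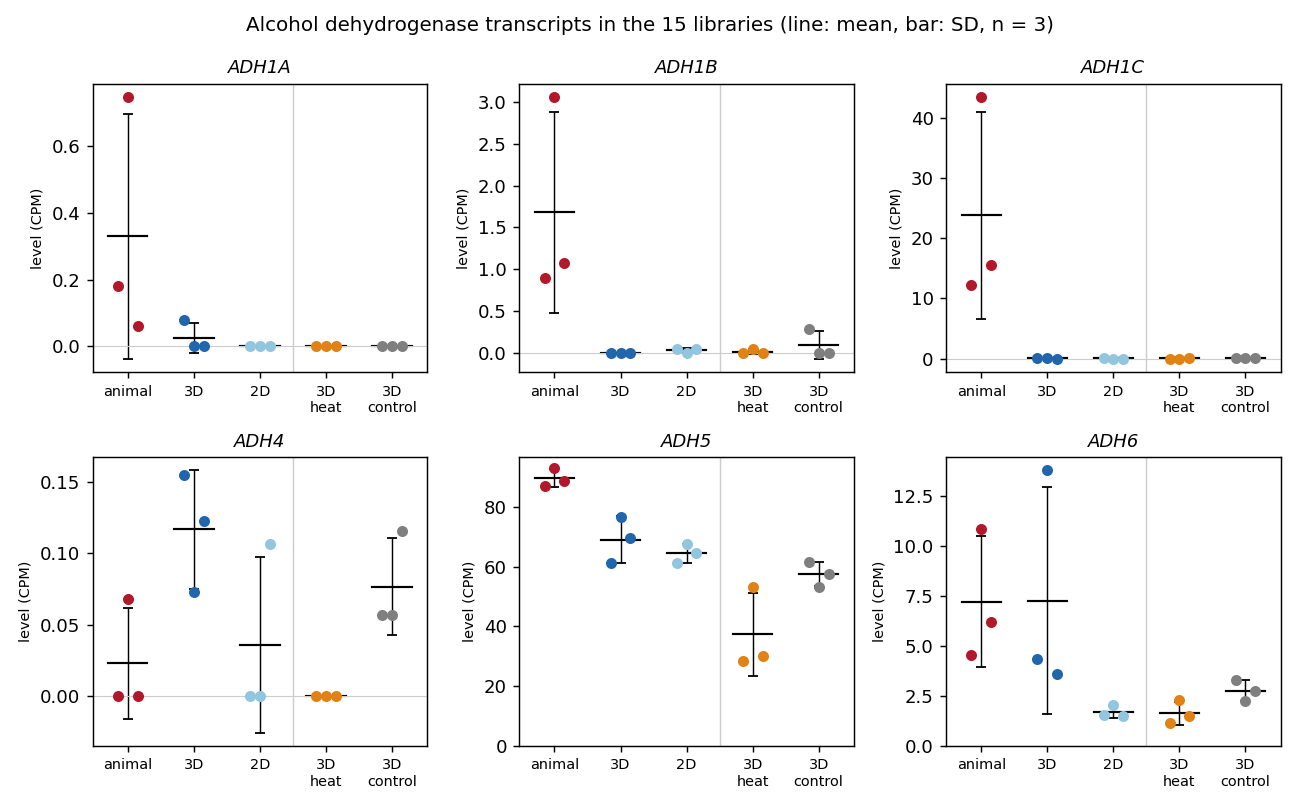
Level of each alcohol dehydrogenase in CPM (vertical axis, its own scale in each panel) in the 15 libraries, by group. Points are libraries, lines means and bars SD (n = 3), and a grey line parts the 2 rounds. The class I genes rise off the zero line in the animal libraries, where ADH1C reached 43.5 CPM in animal replicate 2, while ADH5 was present in every library and ADH6 spread widely in the animal and 3D groups.

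ADH4, the class II enzyme, was all but unread. It had 0, 1 and 0 reads in the animal libraries, 2, 1 and 2 in the 3D libraries, 0, 0 and 2 in the 2D libraries, 0 in each 3D heat library and 1, 1 and 2 in the 3D control libraries. Its group means reached 0.117 CPM at most, in the 3D model. The groups of the first round overlap, and the pooled animal to 2D ratio of 0.588 has an interval of 0.00997 to 11.3. The animal libraries, with 1103 reads of ADH1C in all, held 1 read of ADH4. No 50-base window of ADH4 occurs in another gene or, with 2 mismatches, in the family.

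ADH5, the formaldehyde enzyme, was the main transcript of the family in every library by reads and by length-corrected level. It stood at 87.2, 93.2 and 88.8 CPM in the animal libraries, 61.2, 76.6 and 69.5 CPM in the 3D libraries and 61.2, 67.6 and 64.7 CPM in the 2D libraries. The animal libraries lay above all others without overlap, and the 3D and 2D libraries overlapped. For no member was the share of all genes that lie apart in the same way counted. The differences on the log2 scale were 0.41 ± 0.16 (SE) for animal against 3D, 0.48 ± 0.16 for animal against 2D and 0.06 ± 0.16 for 3D against 2D. With an offset that takes out library trends with GC and length of transcripts (the GC and length offset), the animal to 3D difference was -0.69 and the 3D to 2D difference 0.97, and without 3D replicates 1 and 2 the 3D and 2D models differed by 0.10. The animal to 3D difference without these 2 libraries was 0.35. So the order of ADH5 between the animal and 3D models turned with the offset and kept its direction without the 2 libraries. The order between the animal and 2D models, neither of which holds any of the 3 libraries, kept its direction in all 15 alternatives, at 0.28 to 0.55. In most of these, 3D replicates 1 and 2 still shared the fit, with its scaling and estimate of spread.

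In the second round ADH5 stood at 28.5, 53.3 and 30.2 CPM in the 3D heat libraries and 61.6, 53.4 and 57.6 CPM in the 3D control libraries. Heated replicate 2 reached the lowest control within 0.1 CPM, and the other two lay well below. The log2 difference was -0.62 ± 0.31, or -0.46 without 3D heat replicate 1. Over all 5 groups the means fell in the order animal (89.7 CPM), 3D (69.1), 2D (64.5), 3D control (57.5) and 3D heat (37.3). In this order the 3D and 2D libraries overlapped, as did the 2D and 3D control libraries, although groups of different rounds cannot be told apart from the rounds themselves. Of the 50-base windows of ADH5, 13.99% occur in other genes, mainly its pseudogene ADH5P4 with 264 windows.

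ADH6, the class V enzyme, was higher in the animal and 3D models than in the 2D model. It had 4.57, 10.9 and 6.18 CPM in the animal libraries, 4.34, 13.8 and 3.62 CPM in the 3D libraries and 1.54, 2.06 and 1.495 CPM in the 2D libraries. Neither the animal nor the 3D libraries overlapped the 2D libraries, though the share of all genes that lie apart so was not counted. The animal and 3D libraries overlapped each other, with a single high library in each (animal replicate 2 and 3D replicate 2). The log2 difference was 2.08 ± 0.56 for animal against 2D, 2.04 ± 0.56 for 3D against 2D and 0.04 ± 0.53 for animal against 3D. Without 3D replicates 1 and 2, the 3D to 2D difference was 1.08 and the animal to 3D difference 0.98 ± 0.49. With the GC and length offset these were 3.26 and -1.33. The highest 3D library, with 190 reads, is one of the 3 that stand apart. No 50-base window of ADH6 is shared with another gene.

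In the second round ADH6 had 1.15, 2.27 and 1.48 CPM in the 3D heat libraries and 3.31, 2.27 and 2.72 CPM in the 3D control libraries. The groups touched at heated replicate 2 and control replicate 2. The log2 difference was -0.73 ± 0.38, or -0.55 without 3D heat replicate 1. Only 12 reads support the value of that library.

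Of the 6 members, 4 passed the filter on low counts in the first round (ADH1B, ADH1C, ADH5 and ADH6) and 2 in the second (ADH5 and ADH6). At an adjusted p below 0.05 in edgeR's quasi-likelihood test, the threshold for every call here, 2 were called higher in the animal than in the 3D model (ADH1B and ADH1C), where 41.5% of 12925 genes were called in either direction. Without 3D replicates 1 and 2, which leaves 1 library in the 3D group, the log2 difference of ADH5 was 0.35. The library left, 3D replicate 3, had 0 reads of ADH1B and 0 of ADH1C. The fit gave 7.84 and 11.7 for them, which are no measured sizes. In animal against 2D, 3 were called higher (ADH1B, ADH1C and ADH6), where 7.78% of genes were called higher. In 3D against 2D 1 was (ADH6), where 32.9% were. ADH6 kept its call in 7 of 15 alternatives for animal against 2D and in 10 of 16 for 3D against 2D, and lost both without any single 2D replicate, at log2 differences of 1.99 to 2.23 and 1.95 to 2.19. The first call was also lost without any single animal replicate (1.65 to 2.32), and the second without 3D replicate 2 (1.197) or without 3D replicates 1 and 2 (1.08). The call of ADH1B in animal against 2D was lost without any single 2D replicate, at 4.78 to 5.61. With 3D heat against 3D control, no member was called in edgeR, none had an unadjusted p below 0.05 and DESeq2 called none, where 0.0238% of 12627 genes were called in edgeR (0.00792% higher and 0.0158% lower). Nothing is read from these calls, since the members were chosen with them known.

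Divided by transcript length, the family's make-up shifted in the animal model. In animal replicate 2, ADH5 stood at 35.6 CPM per kilobase and ADH1C at 25.0, whereas ADH1C reached 7.05 and 8.97 CPM per kilobase in animal replicates 1 and 3. The mean was 34.3 ± 1.18 CPM per kilobase for ADH5 and 13.7 ± 9.84 for ADH1C in the animal model (SD, n = 3), and ADH6 followed with 2.16. In reads, ADH5 held 61.5% to 83.0% of the family in the animal libraries and 84.6% to 97.5% in the cultured ones. The lowest cultured share, in 3D replicate 2, went with its high ADH6.

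**Figure D2:**
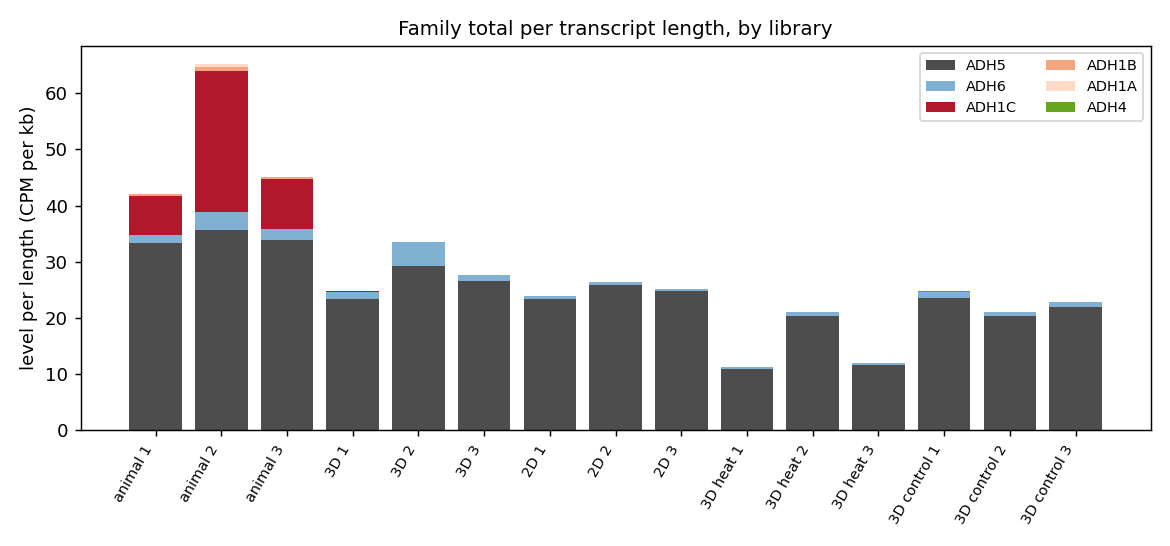
Stacked level of the 6 alcohol dehydrogenases (vertical axis, CPM per kilobase of the longest coding transcript) in each library (horizontal axis). ADH5 forms most of each bar, ADH1C adds 7.05 to 25.0 CPM per kilobase in the animal libraries only, and the bars of 3D heat replicates 1 and 3 are the shortest.

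The animal libraries differed among themselves in the same order for several of these genes. Animal replicate 2 was highest for ADH1A, ADH1B, ADH1C and ADH6, and for ADH5 by a narrow margin, while 37.03% of all genes tested were highest in that library. The same library was highest for CYP2E1 (1.38, 13.6 and 5.58 CPM in animal replicates 1, 2 and 3), the microsomal ethanol oxidase, and for COL1A1 (119.5, 244 and 59.7 CPM), a fibroblast collagen. It was not highest for ALB (116, 90.8 and 283 CPM), TF (240, 99.1 and 91.7 CPM) or MTTP (164, 79.8 and 146 CPM), which mark hepatocytes or lipoprotein secretion. So class I levels did not follow albumin from library to library. With 3 libraries no relation across them can be tested.

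**Figure D3:**
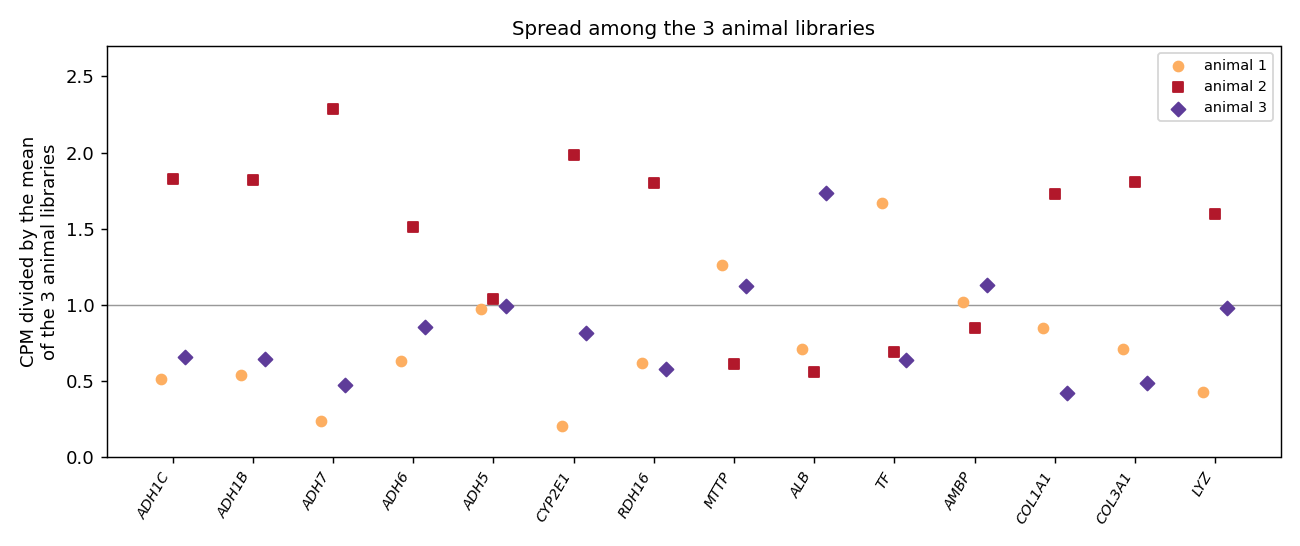
Level in each animal library divided by the mean of the 3 (vertical axis, a ratio without unit) for alcohol dehydrogenases, enzymes of ethanol and retinoid handling, and markers of hepatocytes (ALB, TF, AMBP), fibroblasts (COL1A1, COL3A1) and leukocytes (LYZ). Squares (animal replicate 2) lie on top for ADH1C, ADH1B, ADH7, ADH6, CYP2E1 and COL1A1, ADH5 differs little, and ALB and TF have other libraries on top.

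Markers of several cell types were higher in the animal libraries as well. Of 14 hepatocyte markers tested, 8 were called higher and 1 lower than in the 3D model. There 18.6% of genes were called higher and 22.9% lower. The median log2 difference of these markers was 2.66, and 2.24 without 3D replicates 1 and 2. Against the 2D model, 9 were called higher and 1 lower, where 7.78% were called higher and 4.25% lower. The 7 fibroblast markers summed to 163 to 460 CPM in animal, 16.1 to 112 CPM in 3D and 64.4 to 68.7 CPM in 2D libraries. Most of the 3D and 2D sums was LUM, at 12.9 to 106 CPM and 48.3 to 54.2 CPM. Of 6 fibroblast markers tested, 5 were called higher in the animal model than in either cultured model. The median log2 difference against 3D was 5.82, and 6.18 over 7 tested without 3D replicates 1 and 2. Leukocyte markers summed to 141 to 197 CPM in animal, 385 to 485 CPM in 3D and 101 to 108 CPM in 2D libraries. Most of this was CD68, at 112 to 178 CPM, 374 to 472 CPM and 97.3 to 103 CPM in the same order. Of 5 leukocyte markers tested, 2 were called higher and 1 lower in the animal than in the 3D model. Against the 2D model 3 were called higher and 0 lower. Endothelial markers summed to 5.71 to 16.5 CPM, 0.727 to 1.86 CPM and 1.37 to 1.66 CPM in the order animal, 3D and 2D. Red blood cell markers summed to 0.660 to 6.33 CPM, 0.218 to 0.776 CPM and 0.107 to 0.374 CPM in that order. Among single markers, the collagen COL1A2 averaged 20.8 CPM in the animal model, 0.463 CPM in the 3D model and 0.142 CPM in the 2D model, and the endothelial receptor KDR 7.98, 0.758 and 1.10 CPM in the same order. The urea cycle enzyme CPS1, a hepatocyte marker, averaged 7.01, 0.268 and 0.249 CPM in the animal, 3D and 2D models. The edgeR adjusted p of the animal model was 0.000752 against 3D and 0.00122 against 2D. Without 3D replicates 1 and 2 the log2 difference of CPS1 against 3D was 3.99. Adipocytes also express ADH1B. The 6 adipocyte markers summed to 21.1 to 32.8 CPM in animal libraries, 29.5 to 125 CPM in 3D libraries and 43.2 to 51.8 CPM in 2D libraries, most of it CIDEC. ADIPOQ, FABP4 and LEP had 0 reads in all animal libraries. PLIN1 was read at 0.301, 0.544 and 0.180 CPM and LPL at 0.0601, 0.272 and 0.360 CPM in animal replicates 1, 2 and 3, and LPL had 0 reads in all 12 cultured libraries. Any removal of host reads is not stated in the sources used here, and the part of these other cells in the class I result was not tested. In bulk samples more cells of a type and more RNA per cell cannot be told apart.

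Along the chromosome the animal difference did not run evenly through the neighbouring genes. ADH7, the class IV enzyme of stomach lining and a strong retinol oxidase, had 2, 17 and 4 reads in the animal libraries and none in the 3D or 2D libraries, at least 2.39-fold and 3.17-fold higher by the floor of 3 reads. Of its epithelial companions, GKN1 had 0 reads in every library and KRT5 had 0 reads in the animal, 2D and 3D control libraries. In animal replicates 1, 2 and 3, KRT13 stood at 0.180, 0.136 and 0.180 CPM and TFF1 at 26.5, 40.9 and 14.9 CPM. The 5 gastric and squamous markers, ADH7 among them, summed to 15.4 to 42.2 CPM in animal libraries, 133 to 470 CPM in 3D libraries and 5.22 to 6.83 CPM in 2D libraries. Nearly all of it was the secreted peptide TFF1, and the part of such cells in the ADH7 result was not tested. C4orf17 had at most 0.120 CPM in any library. MTTP, which loads lipid onto lipoproteins, rose to 129.99 ± 44.3 CPM in the animal model, against 40.1 ± 23.5 CPM in the 3D model and 21.8 ± 3.08 CPM in the 2D model (SD, n = 3 each; edgeR adjusted p = 0.0139 and 0.00678). The animal to 3D difference of MTTP was 1.72 on the log2 scale, and 0.94 without 3D replicates 1 and 2. The adjusted p of that comparison was 0.0572 without 3D replicate 1 and 0.0508 without animal replicate 1.

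On the ADH5 side, EIF4E, the cap-binding protein of translation, fell to 12.2 ± 4.21 CPM in the 3D model, against 38.4 ± 0.992 CPM in the 2D model (edgeR adjusted p = 0.00349). The animal model held 34.7 ± 1.81 CPM, higher than 3D (adjusted p = 0.00334). Both calls of EIF4E were lost with the GC and length offset (adjusted p = 0.346 and 0.901). Without 3D replicates 1 and 2 its log2 differences were -1.21 for 3D against 2D and 1.04 for animal against 3D. METAP1, which trims the first methionine from proteins, fell to 49.9 ± 3.19 CPM in the 3D model, against 72.6 ± 1.11 CPM in the 2D model (adjusted p = 0.0216), and its direction turned under the GC and length offset. Its call was lost without any single 2D replicate or 3D replicate 1 (0.0625 to 0.0900). Without the pair of 3D libraries its log2 difference was -0.64. TRMT10A, a tRNA methyltransferase, had 11.7 ± 0.626 CPM in the animal model and 3.49 ± 3.39 CPM in the 3D model (adjusted p = 0.0418). That call was lost without any single animal replicate or 3D replicate 1 or 2 (0.0598 to 0.136). Without both of those 3D libraries the log2 difference of TRMT10A was 0.66. TSPAN5 and DAPP1 were called in no comparison. Of the 8 listed neighbours, 6 were tested. The counts were 3 higher for animal against 3D, 1 higher for animal against 2D and 2 lower for 3D against 2D. Over all genes tested, 18.6%, 7.78% and 12.9% were called in these directions. None was called for 3D heat against 3D control (1 at an unadjusted p below 0.05). The median log2 difference of the tested neighbours was 1.33 for animal against 3D and -0.53 for 3D against 2D. Over 7 tested without 3D replicates 1 and 2 these were 0.66 and -0.30.

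The rest of the pathway was read from 6 lists with 61 genes. In animal against 2D, 6 of the 55 tested rose and 2 fell, with a median log2 change of 0.01, against 0.03 over all genes tested. In this comparison the other route from ethanol to acetaldehyde rose with class I. CYP2E1 averaged 6.86 ± 6.21 CPM in the animal model and 0.195 ± 0.0300 CPM in the 2D model (SD, n = 3 each), 34.0-fold higher (edgeR adjusted p = 0.0184). Catalase (CAT), the third route, had 93.6 ± 16.1 CPM in the animal model and 81.5 ± 2.44 CPM in the 2D model (adjusted p = 0.614). ACSS1, the mitochondrial enzyme that joins acetate to coenzyme A, was 2.86-fold higher (adjusted p = 0.00993). The call of CYP2E1 was lost without any single 2D replicate (0.0860 to 0.0883), and that of ACSS1 without 2D replicate 1 or 2 (0.0613 and 0.0540).

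The aldehyde step did not rise with them. ALDH2 stood at 234 ± 30.6 CPM in the animal model and 277 ± 4.13 CPM in the 2D model, without a call (edgeR adjusted p = 0.511). ALDH1A1, the cytosolic enzyme for acetaldehyde and retinaldehyde, fell 3.03-fold to 783 ± 126 CPM in the animal model, against 2373 ± 41.8 CPM in the 2D model (adjusted p = 0.00197). It was the only one of 15 tested aldehyde dehydrogenases called there, and its call held in all 15 alternatives. GSR, which regenerates glutathione, fell 2.20-fold (adjusted p = 0.00367), and ESD, the esterase that follows ADH5 in clearing formaldehyde, had 37.7 ± 5.72 CPM in the animal model and 27.2 ± 0.702 CPM in the 2D model (adjusted p = 0.229).

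Of 17 tested retinoid genes, 4 rose in animal against 2D, among them RDH16, CYP26B1 and DHRS3. RDH16, a liver retinol dehydrogenase, had 2.95, 8.57 and 2.76 CPM in the animal libraries and 0, 0.0528 and 0.107 CPM in the 2D libraries (edgeR adjusted p = 0.00223). CYP26B1, which degrades retinoic acid, was 5.99-fold higher (adjusted p = 0.0249), and the retinaldehyde reductase DHRS3 2.01-fold higher (adjusted p = 0.0348). The calls of CYP26B1 and DHRS3 were each lost without any single 2D replicate (0.0999 to 0.149), and also without animal replicate 1 or 2 (0.0716 to 0.139). None of the 13 reductases of carbonyls and sugars was called in edgeR, 4 had an unadjusted p below 0.05, and DESeq2 called 3 lower, where it called 7.79% of all genes lower.

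In animal against 3D, 7 of the 55 genes rose and 20 fell, with a median log2 change of -0.29 against 0.10 over all genes. Without 3D replicates 1 and 2 the median over 58 tested was -0.04, against 0.06 over all genes. CYP2E1 was 18.0-fold higher (edgeR adjusted p = 0.0134), or 4.17 on the log2 scale. This was 2.97 without these libraries (0.0838) and 3.93 without 3D replicate 1 alone (0.0570), and neither was called. CYP26B1 was 12.0-fold higher (adjusted p = 0.00370), whereas CRABP2, which hands retinoic acid to its receptor, was 20.4-fold lower (adjusted p = 0.000183) and STRA6, the retinol uptake receptor, fell by 2.14 on the log2 scale (adjusted p = 0.00524). Without the pair the log2 differences were 4.22 for CYP26B1, -3.99 for CRABP2 and -2.197 for STRA6, each in the same direction. Of the aldehyde dehydrogenases, 7 of 15 fell and 1 rose, where 22.9% of genes fell and 18.6% rose. Without the pair 5 of 17 fell and 3 rose, against 22.5% and 24.6% of genes. ALDH2 was 2.40-fold lower (adjusted p = 0.00228), ALDH3B1 6.07-fold lower (adjusted p = 0.000422) and ALDH1A1 1.62-fold lower (adjusted p = 0.0230). The call of ALDH1A1 was lost without 3D replicate 1 (0.0723) and without animal replicate 1 or 3 (0.0915 and 0.0644). ALDH3A1, which oxidises aromatic and long-chain aldehydes, averaged 507 CPM in the animal model and 4605 CPM in the 3D model (adjusted p = 0.00126), with 5654, 6263 and 1898 CPM in 3D replicates 1, 2 and 3. Without the pair its log2 difference was -1.92, against -3.13 with it, and it was -0.89 for ALDH2 against -1.27, -1.96 for ALDH3B1 against -2.60, and -0.43 for ALDH1A1 against -0.698. Each of these kept its direction at a smaller size. ACSS2, the cytosolic acetate enzyme, was 4.57-fold lower (adjusted p = 0.000761). Without the pair its log2 difference was -2.02. Of the 13 reductases 6 fell and none rose, where 22.9% of genes fell. The median log2 difference of the reductases was -0.73, and -0.04 without the pair. AKR1B1, the aldose reductase of the polyol pathway, averaged 342 CPM in the animal model and 1536 CPM in the 3D model (adjusted p = 0.0141), and AKR1C1, a ketosteroid reductase, 666 CPM in the animal model and 1723 CPM in the 3D model (adjusted p = 0.0222). Without 3D replicates 1 and 2 the log2 differences were -0.16 for AKR1B1 and -0.14 for AKR1C1, against -2.11 and -1.32 with them. The call of AKR1B1 was lost without animal replicate 2 (0.0564). That of AKR1C1 was lost without 3D replicate 1 or 2 or any single animal replicate (0.0549 to 0.0789).

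In 3D against 2D, 15 of the 55 genes rose and 5 fell, with a median log2 change of 0.35 against 0.03 over all genes, where 20.0% of genes were called higher and 12.9% lower. Without 3D replicates 1 and 2 it was 15 higher and 18 lower of 58, with a median of -0.11, where 22.9% of genes were called higher and 23.6% lower. CRABP2 was 11.3-fold higher (edgeR adjusted p = 0.000642), at 152, 251 and 133 CPM in the 3D libraries and 13.7, 16.2 and 16.0 CPM in the 2D libraries, and its call held in all 16 alternatives. ALDH2 rose 2.03-fold to 579.7 ± 135 CPM in the 3D model, against 277 ± 4.13 CPM in the 2D model (adjusted p = 0.00694). Without the pair its log2 difference was 0.63, against 1.02 with it. ACSS2 was 5.002-fold higher (adjusted p = 0.00106) and ALDH1A1 1.87-fold lower (adjusted p = 0.0110, and 0.642 with the GC and length offset). ALDH3A1 averaged 4605 CPM in the 3D model and 1255 CPM in the 2D model (adjusted p = 0.0108), a call lost without 2D replicate 2 (0.0516). Without the pair of 3D libraries the log2 difference of ALDH3A1 was 0.59, against 1.83 with it. The retinol dehydrogenase RDH5 averaged 21.8 CPM in the 3D model and 6.89 CPM in the 2D model (adjusted p = 0.00203, and 0.135 with the offset). Genes of glutathione supply fell, namely GCLM by 1.70, GCLC by 1.36 and GSR by 1.12 on the log2 scale (adjusted p = 0.00348, 0.00940 and 0.00285), of which the call of GCLM was lost with the offset (0.562). ADHFE1, an iron-containing alcohol dehydrogenase of mitochondria and no relative of this family, had 2.02, 0.727 and 7.12 CPM in the 3D libraries and 0.533, 0.897 and 0.534 CPM in the 2D libraries (adjusted p = 0.0406), with overlap between the groups. Its call was lost without any single 2D replicate, 3D replicate 1 or 3D replicate 3 (0.0614 to 0.127). Without the pair of 3D libraries its log2 difference was 3.42, against 2.31 with them. Log2 differences there were 2.13 for ACSS2, -1.18 for ALDH1A1, 1.62 for RDH5, -1.32 for GCLM, -0.85 for GCLC and -1.39 for GSR. All 6 kept their direction.

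**Figure D4:**
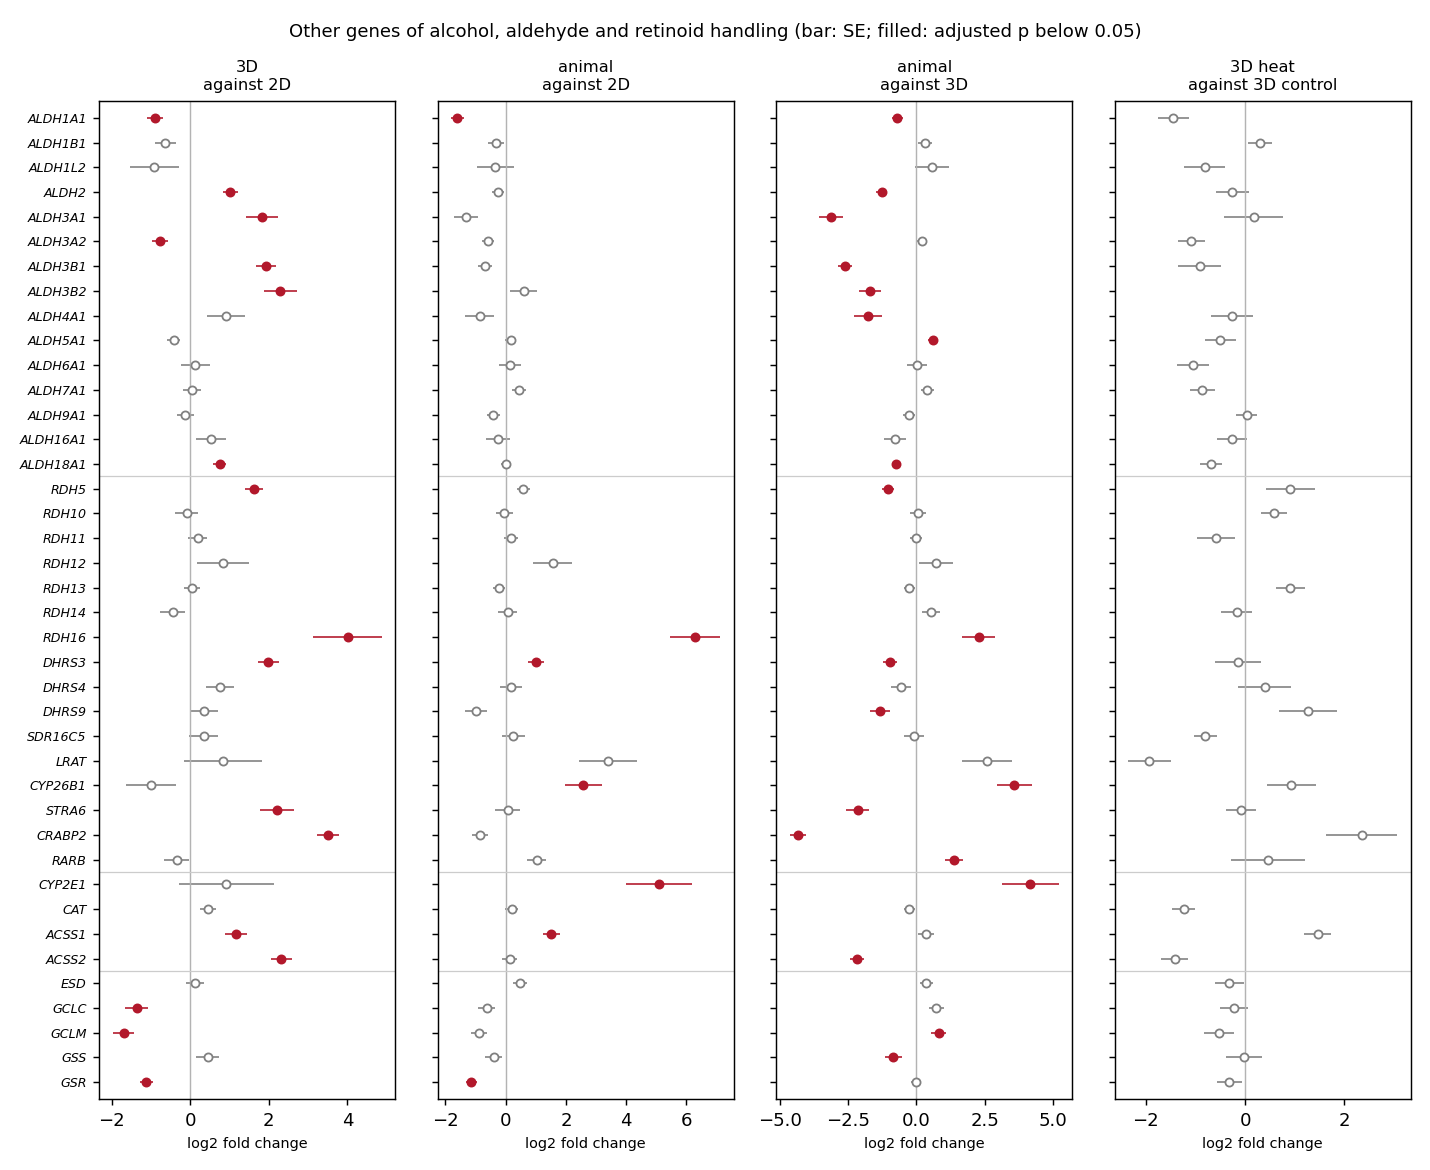
Log2 fold change with SE (horizontal axis, its own range in each panel) of the tested aldehyde dehydrogenases, retinoid genes, ethanol and acetate enzymes and glutathione genes (vertical axis, grey lines part the lists) in the 4 comparisons, filled red where the edgeR adjusted p is below 0.05. CYP2E1 lies far right in animal against 2D while ALDH1A1 lies left in every panel, and no gene is filled for heat; a gene with no read in a group has no point, 1 tested retinoid gene is not drawn, and RDH16 against 2D rests on 3 reads.

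After heat no pathway gene was called of 50 tested in edgeR, 13 had an unadjusted p below 0.05, and DESeq2 called 2 higher and 9 lower, where it called 6.74% of genes higher and 5.46% lower. Without 3D heat replicate 1, 4 were called higher and 17 lower of 53, where 14.0% of genes were called higher and 14.8% lower. ALDH1A1 stood at 574, 704 and 620 CPM in the 3D heat libraries and 1771, 1725 and 1712 CPM in the 3D control libraries. The groups lay far apart, with an edgeR adjusted p of 0.101, or 0.00428 without 3D heat replicate 1. CAT averaged 47.9 ± 7.49 CPM in 3D heat libraries and 113.6 ± 6.54 CPM in 3D control libraries (SD, n = 3 each; adjusted p = 0.0904, and 0.00830 without that library). ALDH2 had 277 ± 99.9 CPM in 3D heat libraries and 334 ± 4.84 CPM in 3D control libraries (adjusted p = 0.679), and ESD 22.0 ± 6.72 CPM in 3D heat libraries and 27.4 ± 1.82 CPM in 3D control libraries (adjusted p = 0.557). CYP2E1, with 16 reads in 3D heat and 26 in 3D control libraries, was not tested.

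Genes with a level profile like that of a member were sought over the 15 libraries by the smallest root mean square difference of centred log2(CPM + 1) values. For ADH1C they were SULF2 at 0.36, PTGFRN at 0.46 and CD33 at 0.47, where the median over 12148 genes was 1.84. SULF2 averaged 27.3 CPM in the animal model, 0.961 in the 3D model and 0.975 in the 2D model. For ADH5 they were TMEM62 (0.18), GALK2 (0.18) and ANP32A (0.18; median 0.75), and for ADH6 ERBB2 (0.37), VILL (0.38) and PLXNB1 (0.38; median 0.996). These differences describe the same 15 libraries, with their shared depth and composition, and carry no test.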

How the data were processed

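The authors deposited a table of raw counts, with gene symbols as rows and libraries as columns, and no other unit was used. Per the submitters' processing notes, HISAT2 and the build hg19 were used. Versions, the counting program and its annotation and strand setting are not given in the sources used here, nor is a step that removes reads of the host. Library preparation, per the labels' protocols, used random hexamers and describes no step that marks the strand. Total counts were 12605539 to 18634295 per library, and a read was worth 0.0484 to 0.0955 CPM.

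The members and all gene lists were chosen with earlier results of these data known, so nothing here is independent of them. Counts were tested in R 4.3.3 with edgeR 4.0.16 (TMM scaling, filterByExpr by group, robust quasi-likelihood fit, Benjamini-Hochberg adjustment over all genes, threshold 0.05), with 1 fit for the 9 libraries of the first round and 1 for the 6 of the second. Log2 fold changes and SE come from these fits. Levels are CPM scaled by TMM over the 15 libraries together, and rounds were set side by side without a test. Genes with few reads are given as pooled ratios with exact Clopper-Pearson 95% intervals, or against a floor of 3 reads per library. Intervals and floors cover counting error only. The test was run on simulated counts in which the spread of each gene was capped at the median over genes. Changes were planted only in genes with many reads. That setting is easier than these data and says nothing of genes with few reads.

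Named were all members, ADH7, ALDH2, ALDH1A1, CYP2E1, CAT, ESD, all locus neighbours and, per list and comparison, called genes among the 4 smallest adjusted p. Marker genes singled out by library (ALB, TF, COL1A1, KRT5 and the like) and HNF4A were chosen after their values were seen. Gene lengths are the longest coding transcripts of GENCODE 29. Promoters come from RefSeq on GRCh38.p14 and were not placed on hg19. The alternatives were DESeq2 1.42.0, other scalings and filters, a replicate block, fits of 2 groups, a GC and length offset by splines with 5 degrees of freedom, class I genes summed, and libraries left out. The markers HP and MUC5AC were not analysed here, and 1 retinoid gene is counted in its list but not reported here by name.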

Additional observations from a re-analysis of the deposited data

How the results depend on the processing

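No value of a member is a test, and these alternatives show how far its description moves. In 3D against 2D, the members called were 2 with the GC and length offset, and 0 in a fit of those groups alone. With that offset, 2165 of 12925 genes were called higher and 2110 lower. They were 0 to 1 when single replicates were left out, with 0 without any 2D replicate or 3D replicate 2. In animal against 2D they were 1 to 2 when single replicates were left out, against 3, and in animal against 3D 1 with class I summed into a single row, by construction. Of the pathway genes, 20 were called in 3D against 2D, 33 with 3D replicates 1 and 2 left out, and 13 to 35 with single replicates left out (13 without 2D replicate 2 and 35 without 3D replicate 3). In animal against 2D 8 were called (6 higher and 2 lower, but 6 and 5 by upper-quartile scaling), 18 in DESeq2, 21 with the offset, 36 in a fit of those groups alone and 3 to 8 with single replicates left out (3 without 2D replicate 1 or 2 and 4 without 2D replicate 3). In animal against 3D 27 were called, 14 in a fit of those groups alone and 14 to 42 with single replicates left out (14 without 3D replicate 1, 42 without 3D replicate 3, 17 without animal replicate 1 or 3 and 16 without animal replicate 2). For heat 0 were called, 11 in DESeq2, 8 with the offset and 0 to 21 with single replicates left out (21 without 3D heat replicate 1 and 5 without 3D heat replicate 2). The cause was not tested.

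Directions turned as follows, in log2 fold changes. With the offset, animal against 3D gave -0.69 for ADH5, -1.33 for ADH6, -1.75 for ESD, -0.87 for GCLM, -0.41 for METAP1 and -0.0055 for TSPAN5. In 3D against 2D it gave -0.40 for DCXR, 0.10 for METAP1 and 0.43 for DAPP1, and for heat 0.061 for ALDH2, 0.054 for ESD and 0.24 for EIF4E. ADH6 in animal against 3D was -0.10 in DESeq2 and by median-ratio scaling, and -0.0525 in a fit of those groups alone. Without 3D replicates 1 and 2, 3D against 2D gave -0.0039 for ESD, -0.16 for DCXR and 0.97 for DAPP1, and animal against 3D 0.036 for GSS, -0.0019 for TSPAN5 and -0.020 for DAPP1. With single replicates left out, the ranges that crossed 0 were, in 3D against 2D, -0.0025 to 0.15 for ADH5, -0.81 to 1.48 for CYP2E1, -0.11 to 0.25 for ESD and -1.72 to 0.30 for DAPP1. In animal against 3D they were -0.38 to 0.88 for ADH6 and -0.012 to 0.26 for TSPAN5, and for heat -0.19 to 0.80 for ADHFE1, -0.010 to 0.66 for TSPAN5 and -0.40 to 0.073 for EIF4E. The cause was not tested.

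Same-numbered libraries correlated at -0.225 to 0.141 in their deviations from group means. No pairing by number was visible, but this cannot exclude one, because trends of single libraries with GC content can mask it. With the replicate block, members called were 1 in 3D against 2D, 3 in animal against 2D, 2 in animal against 3D and 0 for heat, and pathway genes called were 18, 7, 24 and 0. Other scalings moved the median of all genes by -0.12 to 0.11 on the log2 scale. A fit of only the groups compared was not run for heat, whose fit already has no others. Depth limits ADH1A, ADH4 and ADH7, where a floor of 3 reads is 0.145 to 0.286 CPM.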

Other observations

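Transcription factors of liver were read as a list of 14, of which 10 were tested in the first round. In animal against 2D, 2 rose, where 7.78% of genes were called higher. FOXA1, which opens liver chromatin, stood at 37.9 ± 7.71 CPM in the animal model and 15.9 ± 1.77 CPM in the 2D model (SD, n = 3 each; edgeR adjusted p = 0.0107). ONECUT1, also known as HNF6, stood at 2.497 ± 0.682 CPM in the animal model and 0.320 ± 0.185 CPM in the 2D model (adjusted p = 0.0202). FOXA1 lost its call without 2D replicate 1 or 3 (0.0720 and 0.0660), and ONECUT1 without any single 2D replicate or animal replicate 1 or 3 (0.0605 to 0.0936). Against the 3D model 2 rose and 4 fell, where 18.6% of genes were called higher and 22.9% lower. FOXA1 was again higher in the animal model (edgeR adjusted p = 0.000766), with log2 differences of 1.92 to 2.39 in the 16 alternatives. DBP and TEF, clock-driven factors known in rodents and humans to bind liver enzyme promoters, were lower, with 3.21 ± 1.77 CPM of DBP in the animal model and 26.4 ± 8.51 CPM in the 3D model (adjusted p = 0.00153, and 0.00336 without the pair). In 3D against 2D, 3 factors rose and 1 fell, where 20.0% of genes were called higher and 12.9% lower. The 1 that fell was FOXA1, at -0.83 on the log2 scale (edgeR adjusted p = 0.0306). FOXA1 kept that call in 10 of 16 alternatives, at -1.15 to -0.70 over all of them. DBP stood at 28.3, 33.8 and 17.1 CPM in the 3D libraries and 2.40, 2.95 and 2.30 CPM in the 2D libraries (edgeR adjusted p = 0.00175). Its log2 difference was 3.32, and 2.74 without 3D replicates 1 and 2. The median log2 difference of the 10 tested was -0.98 for animal against 3D and 0.65 for 3D against 2D. Over 13 tested without those 2 libraries these were 0.12 and 0.18. Heat gave no call among the 9 tested in edgeR, and 1 had an unadjusted p below 0.05.

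ALDH8A1, an aldehyde dehydrogenase of retinal and kynurenine handling, was chosen after its values were seen. It had 4, 7 and 24 reads in the 3D heat libraries and 1, 0 and 0 reads in the 3D control libraries, a pooled ratio of 37.7 with an exact 95% interval of 6.34 to 1531 for counting error. It did not pass the filter on low counts and was not tested.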
